A study of Mus musculus with 7 samples.

Results

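The Reg genes encode small secreted proteins with a C-type lectin fold, a carbohydrate-binding fold. The 6 members described here are Reg1, Reg2, Reg3a, Reg3b, Reg3g and Reg4, found among the probes by the gene name in the scanner files or by the current symbol of the probe's accession. Each had 1 probe with 1 spot, so 6 of 41138 probes and 6 of 27583 genes and unnamed probes were members. The members were chosen by their levels on these same arrays, so those levels are given as a description, with no test on any member.

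The series compared 3 arrays of iHep cells, 1 array of hepatocytes from adult mouse liver and 3 arrays of mouse embryonic fibroblasts (MEF), all from C57BL/6 mice. iHep cells are induced hepatocyte-like cells made from MEFs, and the labels distinguish types 4α1, 4α2 and 4α3, with 1 array each. As background, such cells were made in this study by adding Hnf4a with Foxa1, Foxa2 or Foxa3. The sources used here do not say what the last digit of a type name stands for, how the cells were grown or whether a type is 1 clone. The MEF samples were prepared one by one from embryos at 13.5 days after mating. RNA was labelled with Cy3 and hybridised to 1-colour Agilent arrays.

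Reg proteins were first known from regenerating pancreatic islets and from pancreatic juice. In the gut, Reg3g binds the peptidoglycan of Gram-positive bacteria and Reg3b acts mainly on Gram-negative bacteria, which keeps bacteria away from the epithelium. Enterocytes and Paneth cells, the antimicrobial cells of the crypt base, make them when MyD88 signalling or the cytokine IL-22, acting through STAT3, is active. Healthy hepatocytes are not a main source of these proteins.

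Levels are log2 of the processed signal minus the 75th percentile on the same array, which is therefore at level 0. A probe counted as present on an array where the scanner software marked it well above background. The arrays had their 75th percentile at signals of 608 (hepatocyte) to 1484 (MEF 2), with 60.2% to 68.7% of probes present. The difference between MEF 2 and MEF 3 was within the noise of repeated spots, so they were counted as 1 sample, giving iHep n = 3, hepatocyte n = 1 and MEF n = 2. Slide 1 held the 3 iHep arrays and MEF 1, slide 2 held MEF 2 and MEF 3, and slide 3 held the hepatocyte array, so hepatocyte and slide cannot be told apart. The labelled cell types carried their markers. Of 9 hepatocyte markers on the array, 6 to 8 were present on the iHep arrays, 9 on the hepatocyte array and 2 to 3 on the MEF arrays. All 10 fibroblast markers were present on every iHep and MEF array and 8 on the hepatocyte array, with summed levels (multiples of the 75th percentile) of 65.7 to 196 on iHep arrays, 56.1 on the hepatocyte array and 906 to 947 on MEF arrays. Albumin (Alb) stood at 6.46, 7.92 and -0.21 on the 4α1, 4α2 and 4α3 arrays, at a saturated 9.95 on the hepatocyte array and at -7.63 to -8.32, not above background, on the MEF arrays. The collagen gene Col1a1 stood at 5.21, 5.44 and 4.01 on the iHep arrays, -4.64 on the hepatocyte array and 7.09 to 7.45 on the MEF arrays. In such bulk RNA, fewer cells of a type and less RNA per cell cannot be told apart.

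Of the 6 members, 4 were present on at least 1 array and 2, Reg2 and Reg4, on none. The bactericidal lectins Reg3b and Reg3g were present on all 3 iHep arrays, and Reg1 was present on the hepatocyte and MEF arrays but on no iHep array. On the iHep arrays 2 members lay above every MEF array and 1 lay below every MEF array without overlap. Across the 19133 genes tested, 23.8% lay above in this way and 30.3% below. Only 3 members, Reg3b, Reg3g and Reg1, passed the filter for the fit across all genes. Reg3b passed through the iHep and hepatocyte groups, Reg1 through the hepatocyte and MEF groups and Reg3g through all 3.

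Reg3b, whose probe carries the older name Pap for pancreatitis-associated protein, had levels of -3.62, 1.34 and 1.35 on the 4α1, 4α2 and 4α3 arrays. Its level was -1.29 on the hepatocyte array and -7.66, -8.94 and -8.69 on MEF 1, MEF 2 and MEF 3, where it was not well above background. The iHep arrays all lay above the MEF arrays, but they did not lie together: types 4α2 and 4α3 stood above the hepatocyte array and type 4α1 below it.

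In processed signal before scaling, Reg3b read 58.0, 2155 and 1998 on the 4α1, 4α2 and 4α3 arrays, 249 on the hepatocyte array and 3.03 to 3.98 on the MEF arrays. The mean level was -0.31 ± 2.87 (SD, n = 3) in iHep cells and -8.24 ± 0.81 (n = 2) in MEFs, which put iHep cells at least 60.1-fold higher. Folds of this kind set the brighter group's mean against, for each dim array, the higher of the lowest level that counted as well above background and the probe's own level. Taken singly, type 4α1 was at least 6.04-fold, type 4α2 at least 189-fold and type 4α3 at least 190.1-fold above the MEF mean.

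The spread among iHep types was wide. Reg3b was 31.3-fold higher on the 4α2 array and 31.5-fold higher on the 4α3 array than on the 4α1 array, while 4α2 and 4α3 differed 1.01-fold. Against the hepatocyte array, type 4α2 was 6.20-fold higher, type 4α3 6.24-fold higher and type 4α1 5.04-fold lower. The iHep mean and the hepatocyte level thus did not differ beyond the spread of the types. The hepatocyte array was at least 30.4-fold above the MEF mean.

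Reg3g, the peptidoglycan-binding lectin, had levels of 0.12, 2.24 and 2.04 on the 4α1, 4α2 and 4α3 arrays, against -3.12 on the hepatocyte array and -4.23, -4.10 and -4.36 on MEF 1, MEF 2 and MEF 3. It was the one member present on all 7 arrays. All 3 iHep arrays stood above the hepatocyte array and above all MEF arrays, and type 4α1 was again the lowest of the types.

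The processed signal of Reg3g was 776, 4016 and 3219 on the iHep arrays, 69.8 on the hepatocyte array and 42.9 to 86.8 on the MEF arrays. Its mean level of 1.47 ± 1.17 (SD, n = 3) in iHep cells was 51.8-fold above the MEF mean of -4.23 and 24.1-fold above the hepatocyte level. Type 4α1 alone was 20.4-fold, type 4α2 88.7-fold and type 4α3 77.1-fold above the MEF mean. The hepatocyte array was 2.15-fold above the MEF mean in level, while its processed signal before scaling lay within the range of the MEF arrays. It has no replicate and stands alone on its slide. Within the types, 4α2 was 4.35-fold and 4α3 3.79-fold above 4α1.

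On slide 1 alone, which holds the 3 iHep arrays and MEF 1, the difference of iHep minus MEF levels was 7.35 for Reg3b and 5.70 for Reg3g, against 7.93 and 5.70 over all slides. With normexp background correction in place of the scanner software's own, and an offset of 50 units added to each signal, these differences were 3.64 and 4.50. Such an offset by itself shrinks log2 differences that involve signals near background. Leaving out 1 sample at a time gave 7.10 to 9.58 for Reg3b, with the highest value without type 4α1, and 5.31 to 6.37 for Reg3g.

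**Figure D1:**
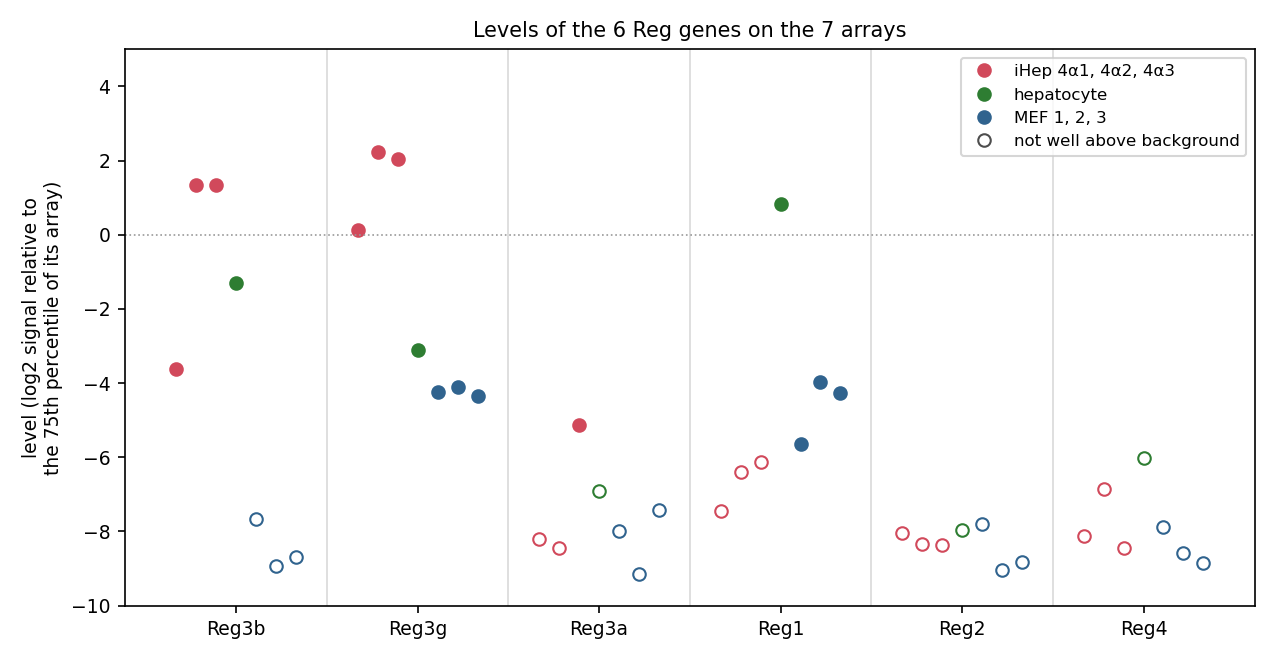
Level of each Reg gene (log2 signal relative to the 75th percentile of its array, vertical axis) on the 3 iHep arrays in the order 4α1, 4α2, 4α3, the hepatocyte array and the MEF arrays 1 to 3, left to right within each gene. Filled points were well above background and open points were not. Reg3b and Reg3g stand high on the iHep arrays with 4α1 the lowest type, Reg1 is highest on the hepatocyte array at 0.84, and Reg2 and Reg4 are open throughout.

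The genes of the family lie close together. The probes of 5 members and of their relative Reg3d, which belongs to the same family but was not a member by the rule, fall within 93157 bases of chromosome 6 in build mm8, the build of the array's own annotation. The Reg3b probe lies at 78302838 to 78302897 and the Reg3g probe, on the opposite strand, at 78395935 to 78395994, near the ends of the cluster. Between them lie the probes of Reg3d at 78305521 to 78305580, Reg3a at 78313150 to 78313209, Reg2 at 78337474 to 78337533 and Reg1 at 78358042 to 78358101. Exons and introns of that build were not used here. In the RefSeq order of GRCm38.p6 the cluster runs Reg3b, Reg3d, Reg3a, Reg2, Reg1, Reg3g, and its nearest protein-coding neighbours with a probe are Lrrtm1 on one side and Lrrtm4 on the other.

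The high levels on the iHep arrays did not extend over the cluster. Reg3d, between Reg3b and Reg3a, had levels of -8.19, -8.43 and -8.47 on the iHep arrays, -8.07 on the hepatocyte array and -7.72 to -9.15 on the MEF arrays, and was well above background on none. Lrrtm1 and Lrrtm4, which encode membrane proteins of neurons, were likewise present on no iHep array, with levels between -8.10 and -8.43. Reg3b and Reg3g, at opposite ends, were thus the 2 genes of the cluster present on all 3 iHep arrays.

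The sequences upstream of Reg3b and Reg3g are printed because these members were high together, and that of Reg1 because it was not. Each is the 250 bases before the annotated transcript start, from RefSeq on GRCm38.p6, read 5′ to 3′ on the gene's own strand. They are chr6:78370635-78370884 (plus strand) for Reg3b, chr6:78468875-78469124 (minus strand) for Reg3g and chr6:78425733-78425982 (plus strand) for Reg1. Capitals mark matches to the motifs listed after them.
Reg3b: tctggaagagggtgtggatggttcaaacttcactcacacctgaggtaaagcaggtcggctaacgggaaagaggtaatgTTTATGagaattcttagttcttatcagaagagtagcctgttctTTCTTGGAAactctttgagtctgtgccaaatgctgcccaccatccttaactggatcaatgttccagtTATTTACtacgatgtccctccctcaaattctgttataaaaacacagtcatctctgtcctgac
Reg3g: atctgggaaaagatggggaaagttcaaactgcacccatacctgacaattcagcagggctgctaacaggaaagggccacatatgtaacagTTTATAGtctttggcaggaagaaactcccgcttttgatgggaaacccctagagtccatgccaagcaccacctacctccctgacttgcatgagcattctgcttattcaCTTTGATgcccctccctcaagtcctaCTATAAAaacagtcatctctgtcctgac
Reg1: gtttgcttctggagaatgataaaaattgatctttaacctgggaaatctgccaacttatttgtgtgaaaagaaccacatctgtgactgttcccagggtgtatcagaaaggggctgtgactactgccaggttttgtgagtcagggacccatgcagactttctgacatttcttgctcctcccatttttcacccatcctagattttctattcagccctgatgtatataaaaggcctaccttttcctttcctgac

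The windows searched ran from 250 bases before to 50 bases after the start, on both strands, for every gene in the RefSeq table. TTCNNNGAA, the palindrome bound by STAT proteins, occurred in 8.30% of 32851 windows and among the 6 members in Reg3b alone, at -129 to -121 counted from the start. TTTATNG or TTTATG, bound by CDX factors of the gut, occurred in 18.9% of windows and in 4 members, Reg1, Reg3a, Reg3b and Reg3g. The matches in Reg1, at 35 to 41, and Reg3a, at 20 to 25, lie after the start, so that of Reg1 is outside the printed sequence. The opposite strand of TTTATAG reads CTATAAA, so this motif overlaps with TATA boxes, and 1 of the matches in Reg3g lies at -28 to -22, where a TATA box usually lies. CTTTGAT, bound by TCF factors, occurred in 3.73% of windows and in 3 members, Reg2, Reg3a and Reg3g. TGTTTAC or TATTTAC, bound by FOXA factors, occurred in 6.54% of windows and in Reg3b and Reg4. GTTAAT, the core of the HNF1 site, occurred in 7.10% of windows and in Reg4. CAAAGTCCA, bound by HNF4, occurred in 0.475% of windows and in no member. A match of these letters is not a binding site, and no match says nothing of the factor.

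Reg3b and Reg3g shared more sequence around their starts than any other pair of members, with an identical run of 29 bases from -20 across the start. The next longest shared run, between Reg3a and Reg3g, was 14 bases and included the CTTTGAT match. Probe sequences were not used here, so how far 1 member's RNA could bind another member's probe was not tested. Reg3g gave 42.9 to 86.8 units of signal on the MEF arrays, where Reg3b gave 3.03 to 3.98.

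Reg1, the pancreatic stone protein secreted by acinar cells of the pancreas, ran the other way. Its levels were -7.45, -6.39 and -6.13 on the 4α1, 4α2 and 4α3 arrays, none well above background, against 0.84 on the hepatocyte array and -5.63, -3.96 and -4.26 on MEF 1, MEF 2 and MEF 3, all well above background. The hepatocyte array stood alone at the top, and the iHep arrays lay below all MEF arrays without overlap.

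The processed signal of Reg1 was 4.08, 10.1 and 11.2 on the iHep arrays, 1092 on the hepatocyte array and 16.2, 95.3 and 73.9 on MEF 1, MEF 2 and MEF 3. In mean level, iHep cells at -6.66 ± 0.70 (SD, n = 3) were at least 118-fold below the hepatocyte array and at least 2.25-fold below MEFs at -4.87 ± 1.08 (n = 2). The hepatocyte array was 52.5-fold above the MEF mean. The iHep minus MEF difference of -1.79 was -1.02 within slide 1 and between -2.55 and -1.02 when 1 sample was left out. With normexp correction and its offset of 50 units it was -0.41. Its size thus rests on MEF 2 and MEF 3 and on how background and offset were set.

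Markers of the exocrine pancreas, where Reg1 is normally made, were set beside it. Of 9 such markers on the array, 2 to 4 were present on the iHep arrays, 4 on the hepatocyte array and 4 to 5 on the MEF arrays. Their summed level was 0.277 to 0.389 on iHep arrays, 0.665 on the hepatocyte array and 0.413 to 0.526 on MEF arrays. All 9 are named here. On the hepatocyte array the digestive enzymes Cpa1, Pnlip, Cpb1, Prss2 and Amy2a5 were not well above background, while Ctrb1 (chymotrypsinogen) stood at -1.11, Cela1 (an elastase) at -3.51, Cela2a at -4.44 and Ptf1a, the acinar transcription factor, at -5.31. Ctrb1 was also present on every iHep array, at -2.60 to -2.68, and on every MEF array, at -2.10 to -2.24. The markers did not share 1 order. Prss2 was highest on the iHep arrays, at -2.85 to -4.05, against -5.44 to -5.46 on the MEF arrays, and Amy2a5 was present on 2 iHep arrays and no others. Cela1, at -2.59 to -3.48 on the MEF arrays, and Cpb1, which reached -3.85 on MEF 3, were highest on MEF arrays. Cpa1 was present on 1 MEF array and Pnlip on none of the 7.

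Of 8 macrophage markers, 3 to 4 were present on the iHep arrays, 8 on the hepatocyte array and 7 on each MEF array, with Clec4f, named after its values were seen as a marker of Kupffer cells, the macrophages of liver, at 1.46 on the hepatocyte array and present on no iHep or MEF array. Their summed level was 6.80 to 16.5 on iHep arrays, 11.8 on the hepatocyte array and 69.3 to 109 on MEF arrays. Of 9 blood and lymphocyte markers, 3 to 4 were present on iHep arrays, 6 on the hepatocyte array and 5 to 7 on MEF arrays. The part of any of these cell types in the Reg1 levels was not tested.

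Reg3a, another lectin of the Reg3 subfamily, was present on the 4α3 array alone. Its levels were -8.21, -8.44 and -5.14 on the 4α1, 4α2 and 4α3 arrays, -6.91 on the hepatocyte array and -7.98, -9.15 and -7.41 on the MEF arrays. The 4α3 signal of 22.2 units was at least 1.54-fold above the hepatocyte array and at least 2.12-fold above the MEF mean, and as 1 spot on 1 array it has no replicate.

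Reg2, a mouse relative of Reg1 known from the pancreas, had levels of -8.03 to -8.37 on iHep arrays, -7.95 on the hepatocyte array and -7.81 to -9.04 on MEF arrays. Reg4, a member known from enteroendocrine and goblet cells of the gut, had levels of -8.12, -6.85 and -8.44 on the iHep arrays, -6.01 on the hepatocyte array and -7.89 to -8.86 on MEF arrays. Its probe annotation on chromosome 3, from 98318487 to 98321733 of mm8, covers more than the length of a probe. Both genes were below the limit of detection on all 7 arrays, so no order between groups is given for them.

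For each of the 4 members present on any array, the 3 genes outside the family with the most similar pattern were found by the root mean square difference of levels over 6 samples, after each gene's own mean was subtracted. Reg3b had no close match: Chrna2, a nicotinic receptor subunit, lay 1.17 away, Tjp3, a tight junction protein, 1.26 and Lypd8, a mucosal protein that binds flagellated bacteria in the colon, 1.28. Lypd8 had levels of -6.11, 2.42 and -1.02 on the 4α1, 4α2 and 4α3 arrays, -2.12 on the hepatocyte array and -7.80, -8.99 and -8.74 on the MEF arrays, so it too was lowest in type 4α1 of the iHep types. On the 4α1 and MEF arrays Lypd8 lay below the lowest level that counted as well above background. Reg3b was likewise at background on the MEF arrays, so that part of the likeness is one of background levels.

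Reg3g had closer matches in Bspry, at 0.44, BC016579, at 0.46, and Sbpl, at 0.49. Bspry had levels of -1.74, 0.50 and -0.21 on the iHep arrays, -4.66 on the hepatocyte array and -5.53, -5.19 and -4.95 on the MEF arrays. For Reg1 the nearest were Cd1d1, a lipid-presenting relative of MHC class I, at 0.42, Srrm3 at 0.46 and 1 probe without a gene symbol at 0.47. Cd1d1 stood at -0.90, 0.26 and -0.25 on the iHep arrays, at 7.10 on the hepatocyte array and at 0.87, 1.34 and 1.37 on the MEF arrays. For Reg3a they were Ghrh, at 0.35, Gm270, at 0.37, and Tmem51, at 0.39. The likeness of patterns over so few samples says nothing of shared function or control.

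**Figure D2:**
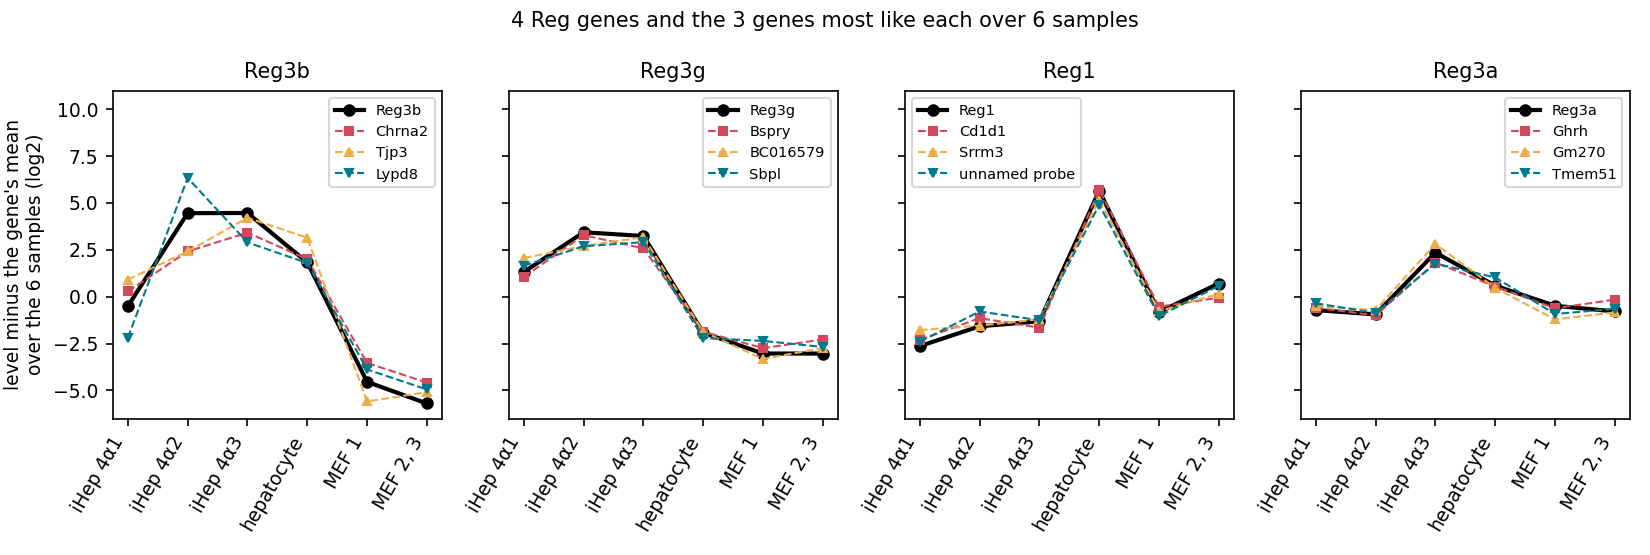
Level of each of 4 Reg genes (black) and of the 3 most similar genes (coloured), minus the gene's own mean over 6 samples (log2, vertical axis), for the 3 iHep types, the hepatocyte array, MEF 1 and the mean of MEF 2 and MEF 3. Reg3b dips at type 4α1 below most of its matches, whereas Reg1 and its matches peak on the hepatocyte array.

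Other genes of the same biology were tested with limma in 1 fit over 19133 genes, in which 10.1% were called higher and 13.2% lower in iHep cells than in MEFs at an adjusted p under 0.05. The p-values were adjusted over all genes tested by the Benjamini-Hochberg method, and changes are on the log2 scale with standard errors. The lists were chosen with earlier results of these data known, so their counts and medians are a description. A gene that passed the filter through the iHep arrays alone, as Pglyrp1, Cdx2 and Pdx1 did, could hardly be called lower. Of 33 tested genes for other antimicrobial and mucosal defence proteins, 14 were higher and 2 lower, with a median change of 2.51 against -0.04 over all genes. Lcn2, which binds bacterial iron carriers, rose by 12.06 ± 0.67 (at least 974-fold, adjusted p = 0.000986). Zg16, a mucus lectin that binds Gram-positive bacteria, was at least 2532-fold higher (change 11.81 ± 0.96, adjusted p = 0.00239).

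The lysozyme genes were the 2 that fell. Lyz2 fell by 7.67 ± 1.14 (204-fold, adjusted p = 0.0114) and Lyz1, the lysozyme of Paneth cells, fell by 7.52 ± 1.10 (184-fold, adjusted p = 0.0111). They are near copies and Lyz2 is a macrophage gene. Adgre1, another macrophage marker, named after its values were seen, fell too, at -8.05, -8.37 and -7.86 on the iHep arrays, against -0.63, 0.71 and 0.59 on the MEF arrays. The part of macrophages, or of 1 lysozyme RNA binding the other's probe, in these falls was not tested. Within slide 1 the list had 6 higher and 0 lower genes, with adjusted p = 0.0784 for Lyz1 and 0.0809 for Lyz2, and without MEF 1 it had 8 and 0. There Lyz1 had adjusted p = 0.0738 and Lyz2 0.0725.

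The order of iHep types seen for Reg3b and Reg3g was not general among the defence genes. Lcn2 had levels of 4.33, 4.26 and 2.54 on the 4α1, 4α2 and 4α3 arrays, -4.06 on the hepatocyte array and -7.84 to -8.97 on the MEF arrays. Zg16 stood at 6.62, 3.38 and 5.31 on the iHep arrays, 0.82 on the hepatocyte array and -6.62 to -6.82 on the MEF arrays. Each was thus high in type 4α1, where both Reg3 lectins were at their lowest iHep level. Genes chosen after their values were seen gave a mixed picture. Pglyrp1, a peptidoglycan recognition protein, had 1.41, 1.15 and 3.01 on the iHep arrays, -8.02 on the hepatocyte array and -7.64 to -8.85 on the MEF arrays. Saa3, an acute-phase protein, had 5.88, 6.47 and 4.10 on the iHep arrays, 1.53 on the hepatocyte array and -1.82, -5.47 and -5.72 on the MEF arrays. Retnlb, an antimicrobial product of goblet cells, was present on the 4α1 array at -3.77 and the 4α3 array at -0.73 but on neither the 4α2 array nor any hepatocyte or MEF array.

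**Figure D3:**
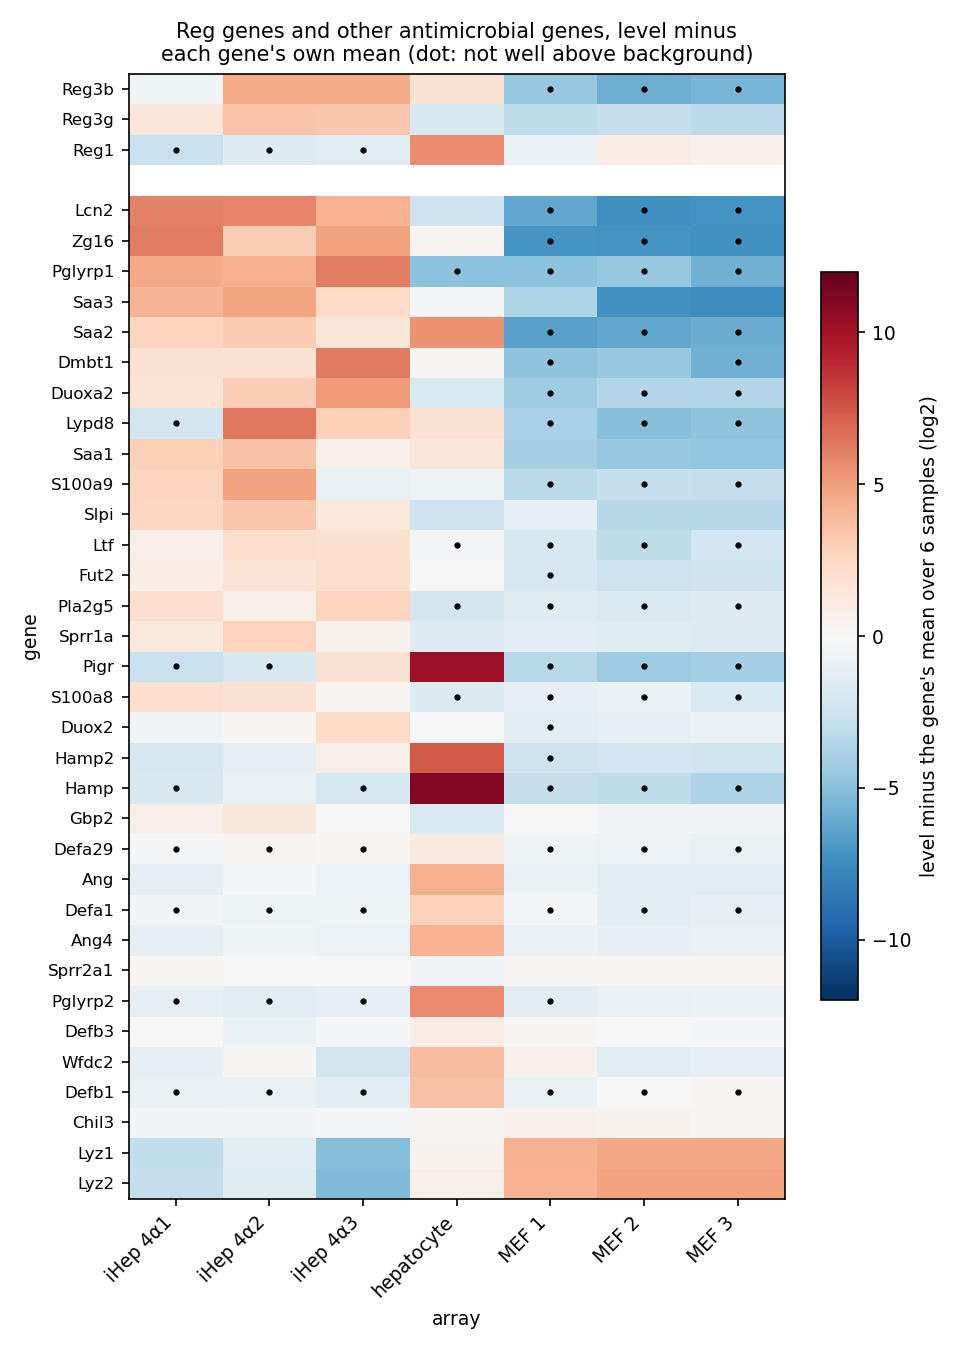
Level minus the gene's own mean over 6 samples (log2, colour) for the 3 Reg genes that passed the filter (top) and the 33 tested genes for other antimicrobial and mucosal defence proteins (below, from the highest to the lowest iHep minus MEF change), on the 7 arrays. Dots mark probes not well above background on that array. Reg3b and Lypd8 are pale or blue on the 4α1 array and red on the other iHep arrays, while Lcn2 and Zg16 are red on all 3.

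Genes for signals that induce Reg3 lectins in the gut changed in smaller number than the defence genes. Of 34 tested, 7 (20.6%) were higher in iHep cells than in MEFs and 2 (5.88%) lower, with a median change of 0.43. Over all genes tested, 10.1% were higher and 13.2% lower. Il33, an epithelial alarm cytokine, rose by 3.99 ± 0.88 (15.9-fold, adjusted p = 0.0334) and Bcl3, an NF-kappa-B regulator, by 3.15 ± 0.45 (8.90-fold, adjusted p = 0.0104). Il6ra, the receptor for IL-6, rose by 2.30 ± 0.28 (4.94-fold, adjusted p = 0.00663). The others that rose, named after their values were seen, were Il18, Nfkbiz, Cebpd and Tlr2. Against the 1 hepatocyte array these 7 genes did not all stand higher in iHep cells. The iHep minus hepatocyte change was -2.22 for Il18, -0.63 for Il6ra and 0.79 for Bcl3. It was 2.84 for Nfkbiz, 3.55 for Tlr2, 3.72 for Cebpd and 4.34 for Il33. Il11 fell by 2.15 ± 0.24 (4.43-fold, adjusted p = 0.00522) and its receptor gene Il11ra1 fell by 1.42 ± 0.26 (2.67-fold, adjusted p = 0.0195). Within slide 1 this list had 1 higher and 2 lower genes, with adjusted p = 0.153 for Il33, 0.0713 for Bcl3 and 0.0546 for Il6ra, and without MEF 1 it had 2 higher and 1 lower, with adjusted p = 0.151 for Il33, 0.0502 for Il6ra and 0.101 for Il11ra1. Il33 was also not called without type 4α1 (adjusted p = 0.0899) or without type 4α2 (0.0697), nor Il11ra1 without type 4α2 (0.0584).

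Apart from Il6ra, the genes of the IL-22 and IL-6 route that were named whatever their result gave no call. Stat3 changed by -0.67 ± 0.20 (adjusted p = 0.0732), with levels of 2.45, 2.22 and 2.34 on the iHep arrays, 3.23 on the hepatocyte array and 3.18, 2.81 and 2.87 on the MEF arrays. Of 14 alternatives, 2 called Stat3 lower. These 14 are not all distinct, since the fits within slide 1 and without MEF 2 and MEF 3 both set iHep cells against MEF 1 alone. Socs3, a target of STAT3 that damps it, changed by 0.52 ± 0.64 (adjusted p = 0.597) and Il6st, the signalling subunit gp130, by -0.66 ± 0.28 (adjusted p = 0.160). Il22ra1, the receptor for IL-22, was close to the limit of detection, at -5.35 to -5.69 on the iHep arrays, -4.54 on the hepatocyte array and -5.48 to -6.35 on the MEF arrays. The arrays measure RNA, so the activity of STAT3 was not measured.

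Of the genes for proteins known to bind Reg proteins or act with them, Extl3, a receptor for Reg1 and Reg3 proteins, fell by 1.03 ± 0.22 (2.04-fold, adjusted p = 0.0296), with levels of 3.64, 3.32 and 3.15 on the iHep arrays, 2.99 on the hepatocyte array and 4.38 to 4.44 on the MEF arrays. Extl3 was called under 8 of 14 alternatives. It was not called without type 4α2 (adjusted p = 0.0883), with the mean of all probes of the gene or with no filter on dim probes. Nor was it called where only 1 MEF sample remained, with a change of -1.01 within slide 1. Egfr changed by -0.93 ± 0.27 (adjusted p = 0.0703). The list has 3 genes, all tested, with a median change of -0.93.

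Among other C-type and soluble lectins, 4 of 34 tested genes were higher and 9 lower in iHep cells than in MEFs, with a median change of -0.23. The galectins Lgals6 and Lgals4, near copies expressed in gut epithelium, rose by 9.86 ± 0.54 (928-fold, adjusted p = 0.000952) and 9.36 ± 0.43 (658-fold, adjusted p = 0.000619). Clec4d and Clec7a, lectins of macrophages and other myeloid cells, fell, with Clec4d at least 31.7-fold lower (change -6.85 ± 0.42, adjusted p = 0.00113) and Clec7a at least 12.6-fold lower (change -5.18 ± 0.62, adjusted p = 0.00640). The other galectins that rose, named after their values were seen, were Lgals2 and Lgals9. Within slide 1 the list had 4 higher and 5 lower genes.

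Against MEFs, gut and pancreas markers moved in both directions. Of 19 enterocyte and crypt markers 9 were higher and 2 lower, with a median change of 1.76, and of 18 Paneth, goblet and enteroendocrine markers 5 were higher and 4 lower, with a median of 0.55. Cdx2, the intestinal transcription factor, was at least 614-fold higher (change 11.51 ± 0.48, adjusted p = 0.000582). It stood at 3.24, 2.31 and 3.59 on the iHep arrays, -6.61 on the hepatocyte array and -8.06 to -9.08 on the MEF arrays. The highest of the second list were Tff3 and Clca1, both of goblet cells, which rose by 15.96 ± 0.66 and 12.77 ± 0.56 (adjusted p = 0.000582 each). Cck, a gut hormone, fell by 6.60 ± 0.29 (97.0-fold, adjusted p = 0.000582). Mmp7, a Paneth cell protease, was within 1.40-fold of the MEF mean in iHep cells and did not pass the filter.

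Smoc2, a gene of intestinal stem cells that fibroblasts also express, fell by 5.52 ± 0.31 (46.0-fold, adjusted p = 0.000988) and Anpep, a brush border peptidase, fell by 3.55 ± 0.43 (11.7-fold, adjusted p = 0.00654). Vil1, a microvillus protein, rose by 13.28 ± 0.74 (at least 2362-fold, adjusted p = 0.000986). Its levels were 3.84, 4.85 and 6.27 on the iHep arrays and -0.56, also well above background, on the hepatocyte array. Within slide 1, 2 enterocyte and crypt markers were higher and 2 lower, and 2 were higher and 1 lower without MEF 1, where Anpep had adjusted p = 0.0530. The Paneth, goblet and enteroendocrine list had 5 higher and 2 lower genes within slide 1.

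Of 22 pancreas markers, 6 were higher and 3 lower, with a median change of 0.15. Besides Zg16, which this list shares, Pdx1, a transcription factor of pancreas and duodenum, had the highest change, at 5.96 ± 0.67 (at least 22.2-fold, adjusted p = 0.00550). Cela1 fell by 4.29 ± 0.46 (at least 8.15-fold, adjusted p = 0.00492). Within slide 1 the list had 3 higher and 2 lower genes, and without MEF 1 it had 2 higher and 2 lower. The acinar factor Ptf1a was present on no iHep or MEF array.

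Of 19 targets of Wnt/beta-catenin signalling, a pathway in which human REG genes are known as targets in liver tumours, 4 were higher and 3 lower, with a median change of -0.33. Glul, glutamine synthetase, rose by 4.82 ± 0.20 (28.3-fold, adjusted p = 0.000582) and Rhbg, an ammonium carrier, by 4.18 ± 0.39 (at least 7.18-fold, adjusted p = 0.00346). Nkd1, a feedback inhibitor of the pathway, fell by 4.06 ± 0.79 (16.7-fold, adjusted p = 0.0232) and Slc1a2, a glutamate carrier, fell by 2.08 ± 0.53 (at least 3.08-fold, adjusted p = 0.0493). Within slide 1 no target was lower, with adjusted p = 0.126 for Nkd1 and 0.217 for Slc1a2, and without MEF 1 these were 0.119 and 0.0860. Without type 4α1, 1 target was lower and Nkd1 had adjusted p = 0.0632. Slc1a2 was called under 4 of 14 alternatives.

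**Figure D4:**
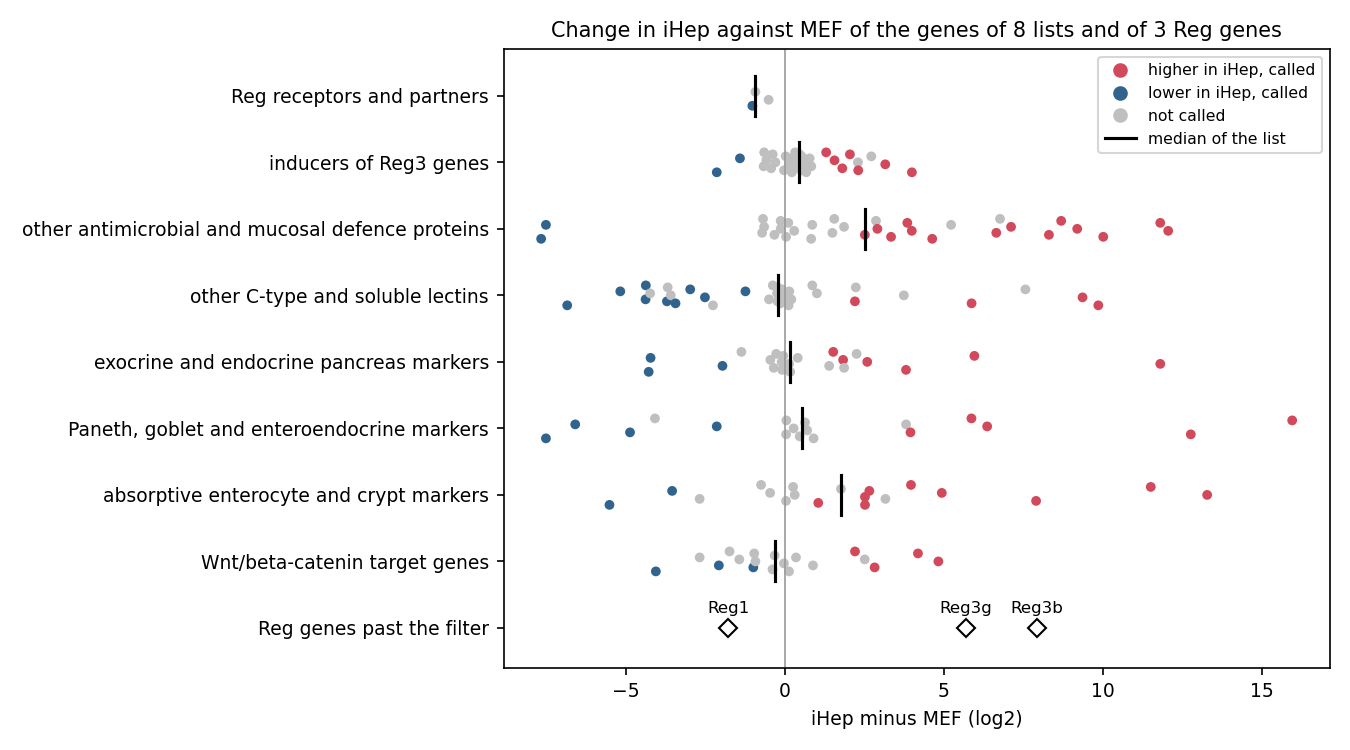
Change in iHep cells against MEFs (log2, horizontal axis) of each tested gene of 8 lists and of the 3 Reg genes that passed the filter (diamonds, untested). Red and blue points passed an adjusted p under 0.05 by limma, grey points did not, and black bars are list medians. Reg3b and Reg3g lie at 7.93 and 5.70, within the range of the antimicrobial genes called higher, and Reg1 lies at -1.79.

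The comparison of iHep cells with hepatocytes rests on 1 hepatocyte array on a slide of its own, assumed in the fit to vary like the other groups. Across all genes 22.1% were called higher and 27.1% lower in iHep cells. Of the 33 defence genes, 9 were higher and 11 lower, with a median change of 0.55 against -0.17 over all genes. Lcn2 was 7.76 ± 0.85 higher in iHep cells than in hepatocytes (218-fold, adjusted p = 0.00215). Of the 34 lectins, 6 were higher and 21 lower, with a median of -3.23. The liver lectins Mbl1 and Mbl2, plasma proteins that bind mannose on microbes and were named here after their values were seen, were present on the hepatocyte array at 4.35 and 8.39 and on no iHep or MEF array. The median change against the hepatocyte array was -1.35 over the 19 enterocyte and crypt markers. It was -0.81 over the 18 Paneth, goblet and enteroendocrine markers and 0.21 over the 34 genes for signals that induce Reg3 lectins. Of the members, Reg3g stood above the hepatocyte array in all 3 iHep types, Reg3b in 2 and Reg1 in none.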

How the data were processed

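Per the file headers, Agilent Feature Extraction 9.5.1.1 made the processed signal, an intensity corrected for background and deposited without scaling between arrays, and the 0 or 1 flags of each spot (unit other). The authors also deposited a table of linear intensity values (column medians 66.3 to 66.4, r = 0.9988 to 0.9999 with each array's own log2 signal), used as an alternative only, since the sources used here do not say how it was made. Spots with outlier marks were left out, repeated spots averaged, and log2 signals set against each array's 75th percentile. Genes were named through the GRCm38.p6 RefSeq table by accession (24358 probes), symbol (6292) or synonym (2422); 7805 probes kept the file's name and 261 had none. The brightest probe stood for a gene. A gene was tested where 1 or more groups had it well above background on all their arrays. limma 3.58.1 in R 4.3.3 fitted all 3 groups, with Benjamini-Hochberg adjustment, and was tested on simulated data. The number of arrays limits the precision, and p-values reflect the spread between these samples alone, for iHep cells that between types.

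The ratio of the spread between MEF 2 and MEF 3 to that of repeated spots was 0.526 to 0.877 over 4 classes of signal, against 3.72 to 4.20 for MEF 1 and MEF 2. The members and the 8 lists were chosen with earlier results of these data known. Named in the text are all members and Reg3d, of each list the 2 called genes with the highest and the 2 with the lowest change, 15 genes named whatever their result, the 9 exocrine pancreas markers, and others said to be named after their values were seen. A further gene that this rule names is not reported here. Promoter windows came from RefSeq. Protein sequences were not used here.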

Additional observations from a re-analysis of the deposited data

Results flagged for a closer look

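Reg1 moved in opposite directions in iHep cells and in hepatocytes when each was set against the same MEF samples. Its level in iHep cells minus MEFs was -1.79, with all 3 iHep arrays below all 3 MEF arrays, and its level in hepatocytes minus MEFs was 5.71, with the hepatocyte array above them all. The difference between these 2 changes was not tested, the iHep levels were not well above background, and the hepatocyte value is 1 array.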

How the results depend on the processing

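With normexp correction, the deposited values or quantile normalization, 2 Reg genes were again higher on the 3 iHep arrays than on any MEF array. The rest of the 14 alternatives reuse the same levels of the members, or some of them, so the count could not fall there. The deposited values and quantile normalization gave nearly the same results and are hardly separate checks. They gave 2118 and 2116 genes higher in iHep cells than in MEFs, and Reg3b differences of 7.73 and 7.70. With MEF 2 and MEF 3 as separate samples, 3158 genes were higher and 4148 lower in iHep cells than in MEFs, against 1924 and 2534 with the arrays averaged. Within slide 1 these were 752 and 916, with 36 list genes called against 73. Leaving out 1 sample at a time gave 682 to 2093 genes higher, 916 to 2554 lower and 36 to 73 list genes, with the low ends without MEF 1 or without MEF 2 and MEF 3, where only 1 MEF sample remains and is assumed to vary like the other groups (956 lower and 37 list genes without MEF 1). Without type 4α1, 1213 were higher and 1655 lower. The cause was not tested beyond the smaller number of samples. No pairing of iHep and MEF arrays by shared number was seen, as their deviations from the group means correlated at -0.04 to 0.03. With MEF 2 and MEF 3 counted as 1 sample, this check could show little of a shared preparation. A fit with the replicate block, on separate MEF arrays, gave 2367 higher, 3081 lower and 85 list genes. Counts against hepatocytes stayed within 1.5 times of those reported under each alternative that keeps that array. Of the other values, for single Reg genes, lists and the median of all genes, 37 moved and 243 did not, with no change of direction among the Reg genes. Levels near background limit Reg1, Reg2, Reg3a and Reg4: with normexp and its offset the iHep minus MEF difference of Reg1 was -0.41.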
